A study of Mus musculus with 8 samples.

Results

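Transcript levels of 10 genes of the liver's nuclear receptor network and of the FXR-FGFR4 axis were followed in whole mouse liver after repeated endotoxin. The genes were chosen by name: Nr1h4, Nr0b2, Nr5a2, Hnf4a, Nr1i2, Nr1i3, Rxra, Nr1h3, Fgfr4 and Klb, 10 of the 23904 gene names in the deposited table. Livers came from male C57Bl/6J mice that were either wild type or carried the ApoE-Cyp7a1 transgene, which the submitters describe as liver specific. Cyp7a1 hydroxylates cholesterol in the rate-limiting step that commits it to bile acids. Mice were untreated or received lipopolysaccharide (LPS), a bacterial endotoxin, by daily injection of 1.5 mg/kg over 7 days, and each of the 4 groups held 2 biological replicates. The age of the mice, the number of transgenic lines and whether untreated mice received a vehicle were not stated in the labels. Expression was measured by RNA sequencing and is given in FPKM, a count of sequenced fragments scaled by transcript length and by the fragments mapped in the library.

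Bile acids are the ligands of the farnesoid X receptor FXR, the product of Nr1h4, which pairs with the retinoid X receptor RXRα from Rxra. FXR induces Nr0b2, whose product SHP represses LRH-1 (Nr5a2) and HNF4α (Hnf4a), 2 activators of bile acid synthesis genes. A second arm runs through the gut hormone FGF15, which acts on the hepatocyte receptor FGFR4 (Fgfr4) with its coreceptor β-Klotho (Klb) and represses Cyp7a1. The xenobiotic receptors PXR (Nr1i2) and CAR (Nr1i3) and the oxysterol receptor LXRα (Nr1h3) also pair with RXRα and control detoxification and cholesterol disposal.

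Upstream sequences are shown for the 3 genes at the centre of the feedback loop. They were searched for AGGTCA because the DNA-binding receptors among the members' products recognise variants of this hexamer. Each is the 250 bases before a RefSeq transcript start on GRCm38.p6, written 5′ to 3′ on the gene's strand. Capitals mark matches, on either strand, to AGGTCA, to its extended form CAAGGNCA, or to the TATA box letters TATAAA. The Nr0b2 window lies on the plus strand at chr4:133553126-133553375, and the Nr5a2 window on the minus strand at chr1:136960449-136960698. Both lie just outside their genes, while the Nr1h4 window, on the minus strand at chr10:89506659-89506908, lies in an intron within the annotated span of that gene.
Nr0b2: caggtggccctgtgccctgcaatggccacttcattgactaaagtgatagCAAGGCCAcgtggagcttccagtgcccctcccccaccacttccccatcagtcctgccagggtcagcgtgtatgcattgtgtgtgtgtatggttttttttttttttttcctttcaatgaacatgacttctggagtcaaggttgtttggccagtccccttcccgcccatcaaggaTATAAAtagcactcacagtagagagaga
Nr5a2: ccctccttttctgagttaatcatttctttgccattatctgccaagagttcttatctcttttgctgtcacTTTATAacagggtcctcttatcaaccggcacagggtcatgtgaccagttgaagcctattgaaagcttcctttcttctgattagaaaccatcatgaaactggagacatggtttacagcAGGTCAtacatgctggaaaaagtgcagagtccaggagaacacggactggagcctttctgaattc
Nr1h4: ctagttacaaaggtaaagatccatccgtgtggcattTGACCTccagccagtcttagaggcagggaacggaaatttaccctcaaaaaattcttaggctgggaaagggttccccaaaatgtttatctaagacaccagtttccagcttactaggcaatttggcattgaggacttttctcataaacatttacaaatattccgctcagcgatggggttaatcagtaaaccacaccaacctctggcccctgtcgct
Nr0b2 held CAAGGNCA at 194 to 201 bases and TATAAA at 23 to 28 bases before its start. The printed Nr5a2 window held AGGTCA at 59 to 64 bases before its start and TATAAA on the opposite strand at 176 to 181 bases. Another Nr5a2 window, before the transcript start at 136953630, is not printed and held no match to the letters searched. Nr1h4 held AGGTCA on the opposite strand, printed as TGACCT, at 209 to 214 bases. Over all 32851 windows of the same length, 14.0% held AGGTCA, 5.53% held CAAGGNCA and 12.4% held TATAAA, so these letters are common. Of the 14 windows of the 10 genes, 3 held AGGTCA: those printed for Nr5a2 and Nr1h4 and 1 of Rxra. The HNF4A letters CAAAGTCCA and the consensus letters of NF-kB, searched on both strands, were found in 0 of the 14, against 0.384% and 0.14% of all windows. A match describes letters only and is not evidence of binding.

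The summed FPKM of the libraries ran from 406668 to 580051, and 10927 to 11979 rows per library reached 1 FPKM. Fragment counts were not used here, so sequencing depth is unknown, and with 2 samples per group the precision is limited. The liver label was checked against 23 hepatocyte genes, of which 21 had their own row, each well expressed, although Alb was listed at 0 in all 8 libraries. Replicate 1 of the transgenic LPS group stood apart from replicate 2 for several genes named here. Values without it are therefore given for the members with own rows, and counts without it for the lists. Pancreatic genes summed to 1439 FPKM in replicate 1 of untreated wild type and 5384 FPKM in replicate 1 of untreated transgenic, against 24.9 to 1115 FPKM elsewhere. The Cyp7a1 row, which does not separate transgene from endogenous transcript, read 24.9 and 49.1 FPKM in untreated wild type, 19.9 and 27.9 with LPS, 64.7 and 78.5 in untreated transgenic and 73.5 and 70.2 with LPS. Every transgenic library was thus above every wild-type library, but neither genotype difference passed the test (log2 1.00, limma adjusted p = 0.68 untreated; log2 1.57, limma adjusted p = 0.275 with LPS).

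Only 8 of the 10 genes had values of their own. In the deposited table Nr1i3 carried exactly the same 8 values as Apoa2, an abundant apolipoprotein gene separated from it by 4352 bases on the same strand of chromosome 1. Nr1h3 likewise carried the values of Madd, which lies 223 bases from it on the same strand of chromosome 2. The values of these rows cannot be assigned to either gene, they are reported under both names, and they are left out of every count of members below. Why the rows are identical was not tested. On the GRCm38 annotation, Hnf4a (chromosome 2, 163506808 to 163572910) overlaps the antisense gene Hnf4aos, and no overlap was found for the other 7 genes with own rows.

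In untreated liver the order of the 8 levels was Hnf4a, Rxra, Nr1h4, Nr1i2, Nr0b2, Nr5a2, Fgfr4 and Klb. FPKM is scaled by transcript length, so these levels can be set side by side. Hnf4a ranged from 199 to 325 FPKM over the 4 untreated libraries and Klb from 8.53 to 11.4 FPKM. Adjacent genes in this order did not overlap over the 4 untreated libraries, except Fgfr4 and Klb, whose ranges of 9.82 to 15.3 and 8.53 to 11.4 FPKM did. The coreceptor pair thus gave the lowest levels, below those of the receptors of the nuclear family. With LPS the order held in wild type. In transgenic liver Klb (10.04 and 10.7 FPKM) lay above Fgfr4 (7.59 and 8.61 FPKM), and Nr0b2 was the lowest of the 8 in replicate 1, at 5.33 FPKM, but above Nr5a2, Klb and Fgfr4 in replicate 2, at 23.6 FPKM.

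**Figure D1:**
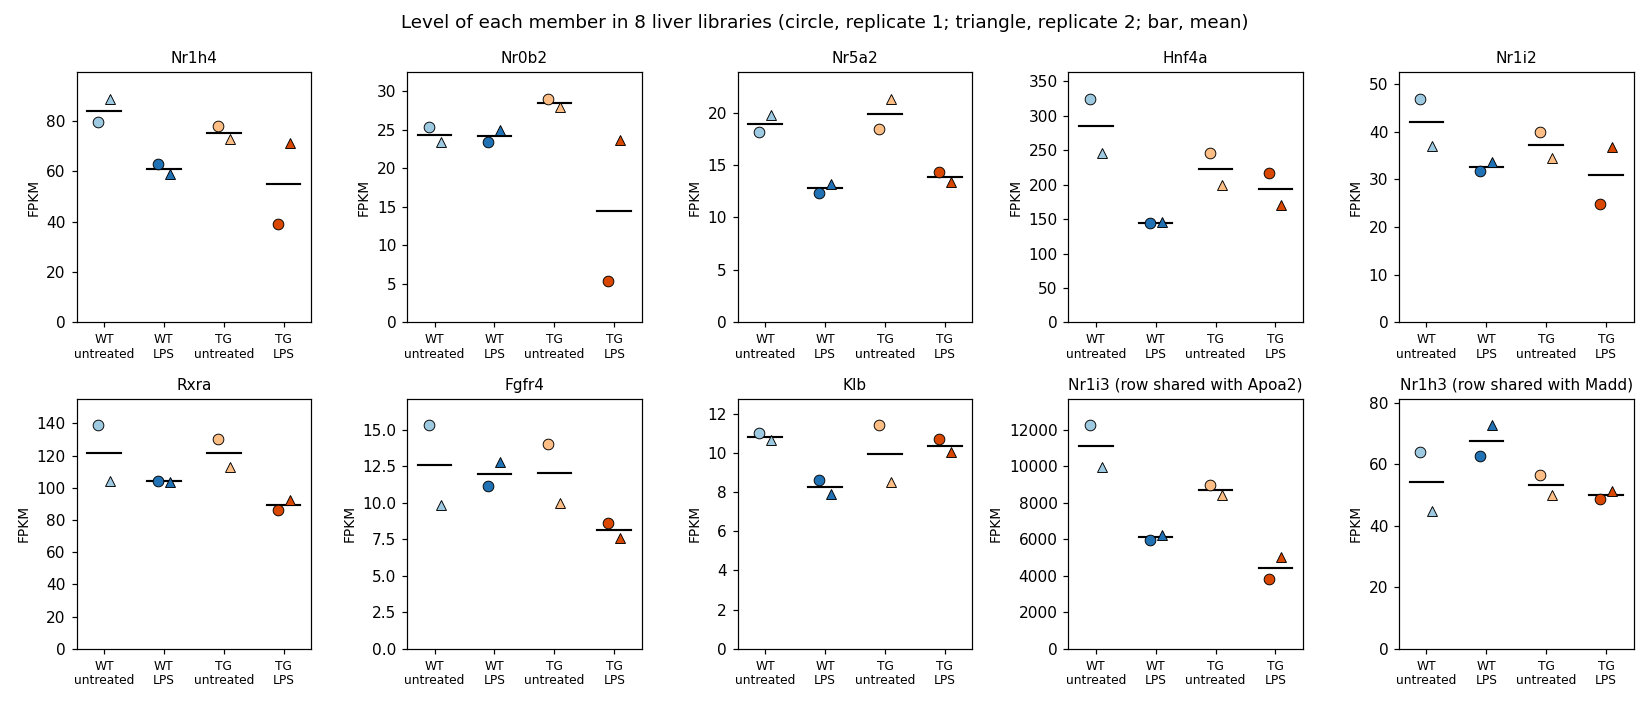
FPKM of each member in the 8 liver libraries, on linear axes that start at 0, by genotype (WT, wild type; TG, transgenic) and treatment; circles are replicate 1, triangles replicate 2 and bars the mean of 2. Nr5a2 lies at 18.1 to 21.3 FPKM in all untreated libraries and at 12.3 to 14.3 with LPS, whereas the 2 transgenic LPS libraries lie far apart for Nr0b2 and Nr1h4.

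The first question was which of these regulators changed with repeated LPS in each genotype. Differences are given as log2(FPKM + 1), LPS minus untreated, with their SE, from limma fitted to all 11463 features that reached 1 FPKM in at least 2 libraries, and a feature is said to pass where its p, adjusted by Benjamini and Hochberg's method over all of them, was under 0.05. In wild-type liver 2 of the 8 genes fell, Hnf4a and Nr5a2, and 0 rose, where 5.41% of all tested features fell and 16.2% rose. In transgenic liver 1 of 8 fell, Nr5a2, and 0 rose, against 10.5% and 16% of all features. The median change of the 8 was -0.35 in wild type and -0.46 in transgenic liver, and that of all features -0.05 and -0.04. After quantile normalization the members' medians were -0.21 and -0.18, and scaled to the hepatocyte genes 0.11 and -0.47. In transgenic liver the median was -0.31 without replicate 1 of the untreated group and -0.32 without replicate 1 of the LPS group, where 0 of 8 passed. Averaged over both genotypes, Nr5a2 and Hnf4a fell and 0 rose, where 15.8% of all features fell and 20.6% rose.

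Without regard to the test, all 8 changes were below 0 in wild type and 7 of 8 in transgenic liver, but quantile normalization left 6 of 8 in each, and scaling each library to its hepatocyte genes left 2 of 8 in wild type and 7 of 8 in transgenic. Both LPS libraries lay below both untreated ones for 5 of 8 genes in wild type, where 34% of all features did so, and for 5 of 8 in transgenic, where 36.2% did. Nr1h4 and Nr5a2 were the 2 of 8 for which all 4 LPS libraries lay below all 4 untreated ones, as they did for 16.8% of all features.

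The hepatocyte genes themselves summed to less with LPS in wild type. Their summed level in 21 rows was 53228 to 59988 FPKM in untreated and 42206 to 42994 in LPS-treated wild-type liver, and 42820 to 47889 and 41736 to 42223 in transgenic liver. Macrophage genes (15 of 18 with own rows, none at 0) summed to 139 to 276 FPKM in untreated and 1605 to 1801 FPKM in LPS libraries. Neutrophil genes (8 of 10, none at 0) summed to 4.44 to 9.14 and 184 to 363 FPKM. In bulk liver, fewer hepatocytes and less of a transcript in each hepatocyte cannot be told apart. When each library was scaled to the hepatocyte list, the median of all features in wild type moved from -0.05 to 0.36, and the wild-type changes of Nr5a2 (-0.07, limma adjusted p = 0.739) and Hnf4a (-0.47, limma adjusted p = 0.128) no longer passed. Relative to all features, the members' wild-type median stood at -0.30 unscaled, -0.25 under that scaling and -0.10 after quantile normalization. In transgenic liver it stood at -0.42, -0.42 and -0.12. The hepatocyte scaling raised the share of all features that rose in wild type from 16.2% to 33.4% and lowered the share that fell from 5.41% to 0.445%, and list counts under it are read against those shares.

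**Figure D2:**
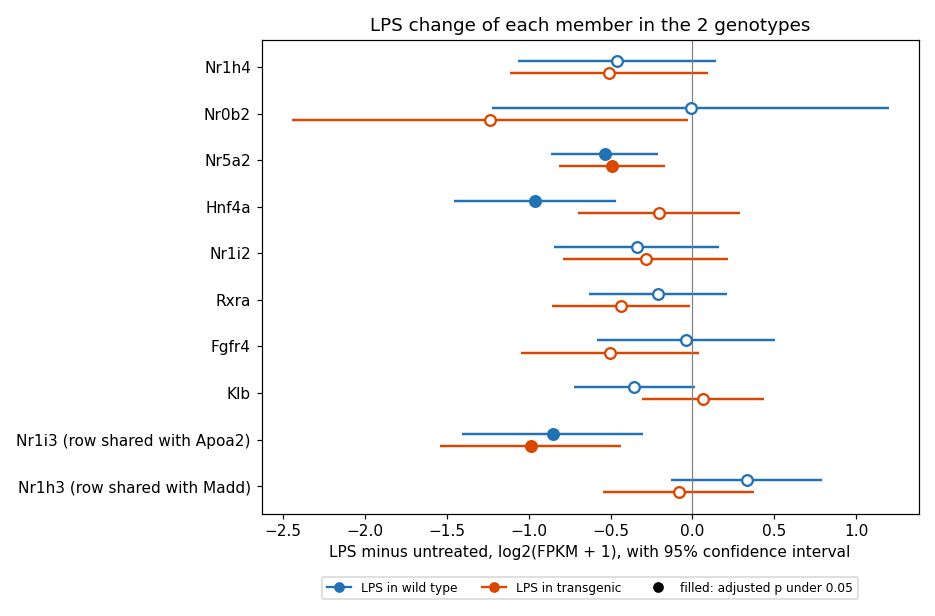
LPS minus untreated for each member in log2(FPKM + 1), blue for wild type and orange for transgenic; lines are 95% confidence intervals from limma (n = 2 per group) and filled points passed at an adjusted p under 0.05. Of genes with own rows, Nr5a2 is filled in both genotypes and Hnf4a in wild type, and Nr0b2 has the widest intervals.

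Nr5a2 encodes LRH-1, a receptor that activates bile acid synthesis genes and is needed for full Nr0b2 expression. Its level was 18.1 and 19.8 FPKM in untreated and 12.3 and 13.2 in LPS-treated wild-type liver, and 18.4 and 21.3 against 14.3 and 13.4 in transgenic liver. The 4 LPS libraries were close together and all below the 4 untreated ones. Group means fell from 19.0 ± 1.17 to 12.8 ± 0.634 FPKM in wild type and from 19.9 ± 2.03 to 13.8 ± 0.663 in transgenic liver (SD, n = 2). The change was -0.54 ± 0.14 (SE) in wild type (limma adjusted p = 0.0312), a 1.45-fold fall, and -0.49 ± 0.14 in transgenic (limma adjusted p = 0.0379), a 1.404-fold fall. These values differed by 0.05 on the log2 scale, with no passing interaction. Without replicate 1 of transgenic LPS the transgenic change was -0.54. Averaged over genotypes the change was -0.51 ± 0.10 (limma adjusted p = 0.00556). That averaged change passed in all 8 refits that each left out 1 library, with adjusted p from 0.00645 to 0.0384. Within a genotype the fall passed in only 3 of 8 such refits in wild type and 2 of 8 in transgenic, with changes of -0.60 to -0.48 and -0.59 to -0.39. The wild-type call was lost without replicate 2 of untreated wild type or any of the 4 wild-type LPS and untreated transgenic libraries, and the transgenic call without any of the 6 libraries other than untreated wild type. After quantile normalization the changes were -0.50 and -0.41 and both missed the threshold (limma adjusted p = 0.0512 and 0.0819), and scaled to the hepatocyte genes so did the averaged change (-0.29, limma adjusted p = 0.0764).

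Hnf4a encodes HNF4α, a receptor that maintains hepatocyte gene expression. It read 325 and 247 FPKM in untreated and 144 and 146 FPKM in LPS-treated wild-type liver. The 2 LPS libraries were almost equal and well below both untreated ones. In transgenic liver it read 247 and 199 FPKM untreated and 217 and 170 FPKM with LPS, which overlapped. The wild-type change was -0.96 ± 0.21 (limma adjusted p = 0.0157), a 1.95-fold fall, and the transgenic change was -0.21 ± 0.21 (limma adjusted p = 0.512), with a 95% interval of -0.70 to 0.29. The difference between these changes was 0.76 ± 0.30, and its test across all features did not pass (limma adjusted p = 0.464). Without replicate 1 of transgenic LPS the transgenic change was -0.38, and without replicate 2 it was -0.03. The wild-type fall did not pass without either wild-type LPS library (limma adjusted p = 0.11 and 0.0998), where the lone sample is assumed to vary like the other groups. It was also lost without replicate 1 of both untreated groups, the libraries with the highest pancreatic sums (-0.76, limma adjusted p = 0.061). Averaged over genotypes the change was -0.58 ± 0.15 (limma adjusted p = 0.0191). The averaged call was lost without either wild-type LPS library or replicate 1 of untreated transgenic (limma adjusted p = 0.0719 to 0.0791), and after quantile normalization (-0.30, limma adjusted p = 0.133).

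Nr1h4, the gene of FXR, lies on chromosome 10 from 89454234 to 89533585. It read 79.5 and 88.7 FPKM in untreated and 62.8 and 58.9 in LPS-treated wild-type liver, and 78.0 and 72.7 against 39.0 and 71.0 in transgenic liver. Every LPS library was below every untreated one, though replicate 2 of transgenic LPS was only just so. The changes of -0.46 ± 0.26 in wild type (limma adjusted p = 0.247) and -0.51 ± 0.26 in transgenic liver (limma adjusted p = 0.189) did not pass, nor did their average of -0.48 ± 0.18 (limma adjusted p = 0.0753). The wild-type change, unaltered in size, passed without replicate 1 of transgenic LPS (limma adjusted p = 0.0462) and without replicate 2 (limma adjusted p = 0.0467), since all groups share 1 estimate of the spread. The transgenic change was -0.93 (limma adjusted p = 0.0075) without replicate 2 and -0.08 without replicate 1.

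Nr0b2 encodes SHP, the FXR-induced corepressor, and lies on chromosome 4 from 133553376 to 133556536. In wild type it read 25.3 and 23.4 FPKM untreated and 23.3 and 25.0 FPKM with LPS. These values overlapped, and the change of -0.01 ± 0.52 had a 95% interval of -1.22 to 1.20 (limma adjusted p = 0.99). In transgenic liver it read 29.0 and 27.9 FPKM untreated and 5.33 and 23.6 FPKM with LPS, so both LPS libraries were lower, replicate 1 by far the more. The transgenic change of -1.24 ± 0.52 did not pass (limma adjusted p = 0.119), nor did the interaction of -1.23 ± 0.73 (limma adjusted p = 0.587). With replicate 1 as the lone transgenic LPS library the change was -2.22 (limma adjusted p = 0.000841) and the interaction -2.21 (limma adjusted p = 0.00786), while with replicate 2 alone they were -0.26 and -0.25. The low level in transgenic liver with LPS thus rests on 1 library. In that library Ppargc1a, a coactivator gene, read 22.9 FPKM against 4.73 in replicate 2, and Tat, an amino acid enzyme gene, 2908 against 1388. Fgf21, a hepatic hormone gene, read 0.374 against 2.05 FPKM. The part of these differences in the Nr0b2 result was not tested.

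**Figure D3:**
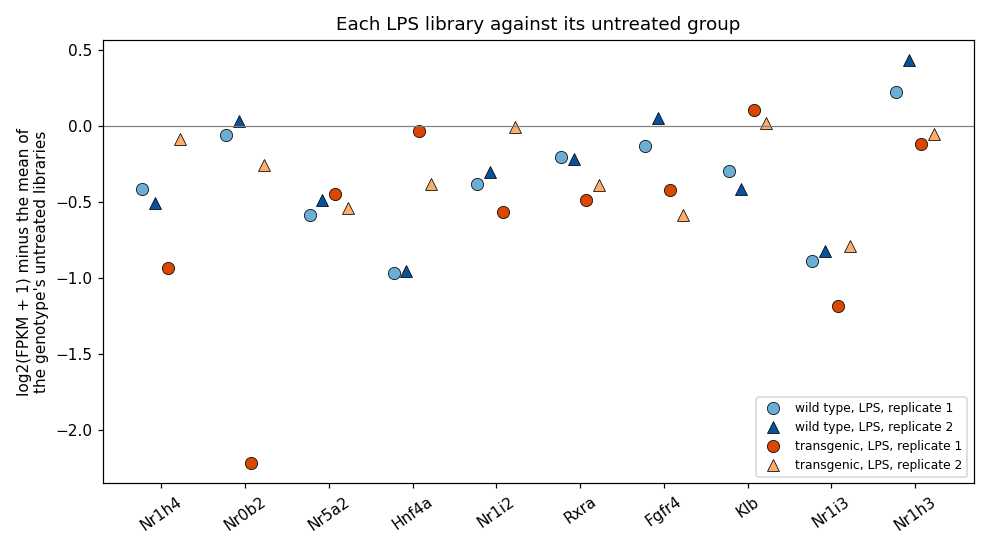
Each LPS library minus the mean of its genotype's untreated libraries, in log2(FPKM + 1), for the 10 members; blue is wild type, orange transgenic, circles replicate 1 and triangles replicate 2, and Nr1i3 and Nr1h3 stand for the rows shared with Apoa2 and Madd. The 2 wild-type libraries lie closer together than the transgenic ones for Nr1h4, Nr0b2, Hnf4a and Nr1i2, and those of transgenic liver lie at -2.22 and -0.26 for Nr0b2 and at -0.93 and -0.08 for Nr1h4.

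Rxra encodes the common partner of FXR, PXR, CAR and LXR. It read 139 and 104 FPKM in untreated and 104 and 104 FPKM in LPS-treated wild-type liver, and 130 and 113 FPKM against 86.3 and 92.4 FPKM in transgenic liver. LPS libraries were below untreated ones in transgenic liver and overlapped them in wild type. Neither the wild-type change of -0.21 ± 0.18 (limma adjusted p = 0.445) nor the transgenic one of -0.44 ± 0.18 (limma adjusted p = 0.116) passed. Without replicate 1 of transgenic LPS the transgenic change was -0.39. The averaged change was -0.32 ± 0.13 (limma adjusted p = 0.0849), and it passed under median ratio scaling (-0.36, limma adjusted p = 0.046) and without replicate 2 of untreated wild type (-0.42, limma adjusted p = 0.0233).

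Nr1i2 encodes PXR, the receptor for drugs and secondary bile acids. It read 46.8 and 37.0 FPKM in untreated and 31.7 and 33.6 FPKM in LPS-treated wild-type liver, and 39.9 and 34.4 FPKM against 24.8 and 36.8 FPKM in transgenic liver. The wild-type groups did not overlap and the transgenic ones did. Neither change passed (-0.34 ± 0.22, limma adjusted p = 0.296; -0.28 ± 0.22, limma adjusted p = 0.367). The averaged change was -0.31 (limma adjusted p = 0.147), and -0.45 without replicate 2 of transgenic LPS (limma adjusted p = 0.0313). The transgenic change alone was -0.01 without replicate 1 and -0.56 without replicate 2 of that group, and neither passed.

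Fgfr4 and Klb, the receptor and coreceptor for FGF15, did not pass in either genotype. Fgfr4 read 15.3 and 9.82 FPKM in untreated and 11.1 and 12.8 FPKM in LPS-treated wild-type liver, and 14.0 and 10.003 FPKM against 8.61 and 7.59 FPKM in transgenic liver. The LPS libraries lay within the untreated range in wild type and below it in transgenic liver, with changes of -0.04 ± 0.23 (95% interval -0.58 to 0.51) and -0.50 ± 0.23 (-1.05 to 0.04). Klb read 11.02 and 10.6 FPKM in untreated and 8.63 and 7.89 FPKM in LPS-treated wild-type liver, and 11.4 and 8.53 FPKM against 10.7 and 10.04 FPKM in transgenic liver. For Klb it was the wild-type LPS libraries that lay below the untreated ones, with changes of -0.35 ± 0.16 (-0.73 to 0.02) and 0.06 ± 0.16 (-0.31 to 0.44). The interaction was -0.46 for Fgfr4 and 0.42 for Klb, and neither passed (limma adjusted p = 0.642 and 0.551). Without replicate 1 of transgenic LPS the transgenic changes were -0.58 for Fgfr4 and 0.02 for Klb.

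The shared row of Apoa2 and Nr1i3 read 12243 and 9965 FPKM in untreated and 5974 and 6250 in LPS-treated wild-type liver, and 8962 and 8454 against 3825 and 5035 in transgenic liver. All 4 LPS libraries were below all untreated ones. The row changed by -0.85 ± 0.24 in wild type (limma adjusted p = 0.0394) and by -0.99 ± 0.24 in transgenic liver (limma adjusted p = 0.0209). The wild-type change was -0.34 after quantile normalization and -0.36 with the hepatocyte scaling, and passed under neither (limma adjusted p = 0.169 and 0.286). Averaged over genotypes it changed by -0.92 ± 0.17 (limma adjusted p = 0.00429) and passed in all 8 refits without 1 library, against 2 of 8 for wild type and 4 of 8 for transgenic alone. It missed the threshold without a filter on low values (limma adjusted p = 0.0709) and without replicate 1 of both untreated groups (limma adjusted p = 0.0549). Its level is far above that of Hnf4a, the highest member with its own row, and says nothing on the CAR transcript alone. The shared row of Madd and Nr1h3 read 63.8 and 44.6 FPKM in untreated and 62.5 and 72.5 FPKM in LPS-treated wild-type liver, and 56.4 and 49.9 FPKM against 48.8 and 51.2 FPKM in transgenic liver. Its groups overlapped in both genotypes, and the changes of 0.33 ± 0.20 and -0.09 ± 0.20 did not pass (limma adjusted p = 0.27 and 0.786).

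The second question was whether the Cyp7a1 transgene altered these regulators. None of the 8 genes passed between genotypes in the fit of all 8 libraries, against 0.0611% of all features in untreated liver and 0% with LPS, nor in the interaction, against 0.00872%. At an unadjusted p under 0.05, limma gave 0 of 8 in untreated liver, 0 of 8 with LPS and 1 of 8, Hnf4a, in the interaction. Of all 11463 features, 631, 1402 and 1189 reached that cut-off, so the count of members is not read as a result. Untreated differences, transgenic minus wild type, ran from -0.35 for Hnf4a to 0.21 for Nr0b2, and those with LPS from -1.01 for Nr0b2 to 0.40 for Hnf4a. The Nr0b2 difference with LPS was -1.99 without replicate 2 of transgenic LPS, which passed (limma adjusted p = 0.00356), and -0.03 without replicate 1. The smallest of the genotype differences in untreated liver was that of Rxra, whose mean was 122 ± 24.3 FPKM without the transgene and 121 ± 12.1 FPKM with it (SD, n = 2). With LPS, Hnf4a averaged 145 ± 0.970 FPKM in wild type and 193 ± 33.4 in transgenic liver, and both transgenic libraries were the higher. Its log2 difference with LPS ran from 0.23 to 0.58 over 8 refits that each left out 1 library.

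The genes these receptors control, and the other members of their families, were followed in lists drawn up from textbook roles. Each is set beside all features, of which 5.41% fell and 16.2% rose in wild type, and 10.5% fell and 16% rose in transgenic liver. The medians of all features were -0.05 and -0.04. Fewer of all features passed in transgenic liver, in either direction, without replicate 1 of its LPS group. List counts without that library are therefore not read against the shares above, and a lower count there is not particular to a list. Of 26 other nuclear receptor genes tested, 1 rose and 3 fell in wild type and 2 rose and 5 fell in transgenic liver, with medians of -0.05 and -0.07. With replicate 1 of transgenic LPS left out, 1 rose and 1 fell there. Scaled to the hepatocyte genes, 8 of 26 rose and 0 fell in wild type, close to the share of all features under that scaling, and the median was 0.35. Thrb, a thyroid hormone receptor gene, fell in both (-0.79 and -0.67; limma adjusted p = 0.0147 and 0.0268), although the wild-type fall did not pass under that scaling (-0.39, limma adjusted p = 0.123), nor the transgenic one without replicate 1 of the LPS group (-0.43, limma adjusted p = 0.121). Ppara, the receptor gene for fatty acid oxidation, fell in transgenic liver (-1.05, limma adjusted p = 0.0132) and read -0.39 in wild type, which did not pass. Nr1d1, the clock repressor gene, also fell in transgenic liver (-0.89, limma adjusted p = 0.049), but did not pass without either LPS library. Nr1h5, the gene of FXRβ, rose in wild type from 1.23 and 1.67 to 4.42 and 3.53 FPKM (1.02, limma adjusted p = 0.0379; 0.74 and 0.119 after quantile normalization). In transgenic liver it read 0.68 (limma adjusted p = 0.114), with 1.81 and 4.29 FPKM in the LPS libraries. Of 22 coregulator genes none passed in wild type. There 3 of 22 had an unadjusted limma p under 0.05, against 4097 of all 11463 features. In transgenic liver Ppargc1a rose and Kmt2d fell (2.07 and -1.15, limma adjusted p = 0.0291 and 0.00463). Without replicate 1 of transgenic LPS these were 1.04 and -0.89 and still passed (limma adjusted p = 0.0108 and 0.0188).

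Bile acid synthesis enzymes include the targets of LRH-1, HNF4α and SHP. Of 13 tested genes 6 fell in wild type and 7 in transgenic liver and 0 rose, with medians of -0.64 and -0.75. Scaled to the hepatocyte genes, 2 of 13 fell in wild type and 7 in transgenic liver (medians -0.15 and -0.76), and after quantile normalization 2 and 4. Of all features, 0.445% and 10.2% fell under the hepatocyte scaling, and 7.84% and 11% after quantile normalization. Without replicate 1 of transgenic LPS, 3 fell and 1 rose in transgenic liver. Cyp27a1, which starts the alternative pathway, fell in both genotypes (-1.17 and -0.57; limma adjusted p = 0.00163 and 0.0358). Its transgenic fall did not pass after quantile normalization (-0.27, limma adjusted p = 0.243) or without replicate 1 of the LPS group (-0.55, limma adjusted p = 0.0853). Cyp8b1, the enzyme of cholic acid formation, fell in wild type from 343 and 505 to 221 and 179 FPKM (-1.06, limma adjusted p = 0.0223; -0.57 and 0.146 with the hepatocyte scaling) and read -0.55 in transgenic liver (limma adjusted p = 0.153). Hsd3b7 fell in transgenic liver (-1.55, limma adjusted p = 0.0015), and Cyp39a1 in wild type (-1.73, limma adjusted p = 0.00325). Among 11 bile acid transporter genes, 1 rose and 1 fell in wild type and 2 rose and 5 fell in transgenic liver, or 1 and 2 without replicate 1 of the LPS group. Abcb11, the canalicular bile salt pump and an FXR target, fell in both (-1.08 and -1.20; limma adjusted p = 0.00305 and 0.00209), from 65.1 and 71.1 to 31.2 and 32.3 FPKM in wild type and from 63.9 and 72.1 to 25.6 and 32.8 FPKM in transgenic liver. Slco1b2, a sinusoidal uptake carrier, fell in transgenic liver (-1.84, limma adjusted p = 0.0124; -1.22 and 0.0263 without replicate 1). Slco1a1, another uptake carrier, also fell there (-1.52, limma adjusted p = 0.035; -0.90 and 0.162 without replicate 1). The shared row of Slco1a4, an uptake carrier too, and Gm6614 rose there from 27.8 and 34.2 to 110 and 53.4 FPKM (1.28, limma adjusted p = 0.0358), but not past the threshold without replicate 1 (0.77, limma adjusted p = 0.164). Nr0b2, which is also an FXR target, did not pass in either genotype.

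PXR and CAR targets serve the oxidation, conjugation and export of drugs. Of 13 tested, 5 fell and 0 rose in wild type, and 5 fell and 1 rose in transgenic liver, with medians of -0.67 and -0.44, and in wild type 1 rose and 1 fell under the hepatocyte scaling. Without replicate 1 of transgenic LPS, 3 fell and 1 rose there, with a median of 0.04. Cyp2c37 fell in both genotypes (-1.60 and -1.24; limma adjusted p = 0.00164 and 0.006), and Cyp1a2 and Aldh1a1 in transgenic liver (-1.82 and -1.61; limma adjusted p = 0.00512 and 0.0144). The shared row of Cyp2b10 and Cyp2b9 rose in transgenic liver (1.94, limma adjusted p = 0.0107; 1.30 and 0.0273 without replicate 1). Among LXR targets 6 of 13 rose and 1 fell in wild type, and 5 rose and 3 fell in transgenic liver, with medians of 0.69 and 0.58. With the hepatocyte scaling 7 rose and 0 fell in wild type, where 33.4% of all features rose. Without replicate 1 of transgenic LPS, 3 rose and 1 fell in transgenic liver. Abcg1, a cholesterol exporter also expressed by macrophages, rose from 1.38 and 1.00 to 8.97 and 9.09 FPKM in wild type and from 1.17 and 1.14 to 7.06 and 7.00 FPKM in transgenic liver (2.199 and 1.90; limma adjusted p = 0.000117 and 0.000305). Mylip, an LXR-induced ubiquitin ligase gene, rose in both (0.73 and 1.04, limma adjusted p = 0.00978 and 0.00221). Arl4c rose in both (1.45 and 0.74, limma adjusted p = 0.0011 and 0.0222). Scd1 passed only in transgenic liver (1.26 and 1.74, limma adjusted p = 0.0722 and 0.0212). Abcg8 fell in wild type (-0.69, limma adjusted p = 0.0139), but not past the threshold with the hepatocyte scaling (-0.21). In transgenic liver Abcg8 changed by -0.98 without replicate 1 of the LPS group and by -0.88 without replicate 2. Abcg5 fell in transgenic liver (-0.71, limma adjusted p = 0.0435). Without replicate 1 of transgenic LPS, the transgenic changes were 0.62 for Arl4c, 1.635 for Scd1 and -0.46 for Abcg5, and these did not pass. The macrophage genes given above also summed to more in every LPS library, and their part in the LXR target result was not tested.

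Of 18 HNF4α targets 1 fell in wild type, and 1 rose and 1 fell in transgenic liver, with medians of -0.46 and -0.31. Scaled to the hepatocyte genes the wild-type median was 0.03. Apoa1, Apob, Ttr, Tat and Cps1 are in both lists, so that scaling itself draws the target median towards 0. Mttp, needed for lipoprotein assembly, was the 1 that fell in wild type (-0.74, limma adjusted p = 0.0242). That 1 of 18 is close to the 5.41% of all features that fell there. Mttp read -0.39 in transgenic liver (limma adjusted p = 0.151). The wild-type value was -0.25 with the hepatocyte scaling (limma adjusted p = 0.341). Fabp1 fell in transgenic liver (-2.45, limma adjusted p = 0.00353) and Tat rose (1.83, limma adjusted p = 0.0126), and both passed without replicate 1 of the LPS group (-1.89 and 1.30; limma adjusted p = 0.0085 and 0.0466). The transgenic median of the HNF4α targets was -0.27 without replicate 1 of that group and -0.34 without replicate 2. Of 18 other liver transcription factor genes, 1 rose and 0 fell in wild type, while 1 rose and 6 fell in transgenic liver, with medians of 0.02 and -0.50. When replicate 1 of that LPS group was left out, 0 rose and 1 fell. Tbx3 had the largest fall in transgenic liver (-2.13, limma adjusted p = 0.0134), and Cebpd rose there (1.82, limma adjusted p = 0.00931). Foxa2 and Cebpa fell there (-1.59 and -1.46; limma adjusted p = 0.016 and 0.0361) and read 0.02 and 0.26 in wild type, but their interactions did not pass (limma adjusted p = 0.418 and 0.437). None of these 4 passed without replicate 1, where Tbx3 read -1.60, Cebpd 1.43, Foxa2 -1.21 and Cebpa -0.98 (limma adjusted p = 0.0572 to 0.189). In the FGF list of 19 genes, 2 rose and 0 fell in wild type and 0 rose and 4 fell in transgenic liver. With the hepatocyte scaling 7 of 19 rose in wild type, close to the 33.4% of all features. Fgf21, Spry4, Fgf1 and Dusp6 were those 4, and Spry4 and Dusp6 are feedback genes of FGF receptor signalling (-1.27 and -0.999; limma adjusted p = 0.00832 and 0.046). Fgf21 changed by -2.59 (limma adjusted p = 0.00181). Without replicate 1 of the LPS group Fgf21 (-2.01, limma adjusted p = 0.00421) and Spry4 (-0.96, limma adjusted p = 0.0405) passed, and Fgf1 and Dusp6 did not (limma adjusted p = 0.0741 and 0.0859). Fgf15, the ligand of FGFR4, was listed at 0 in all 8 libraries.

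**Figure D4:**
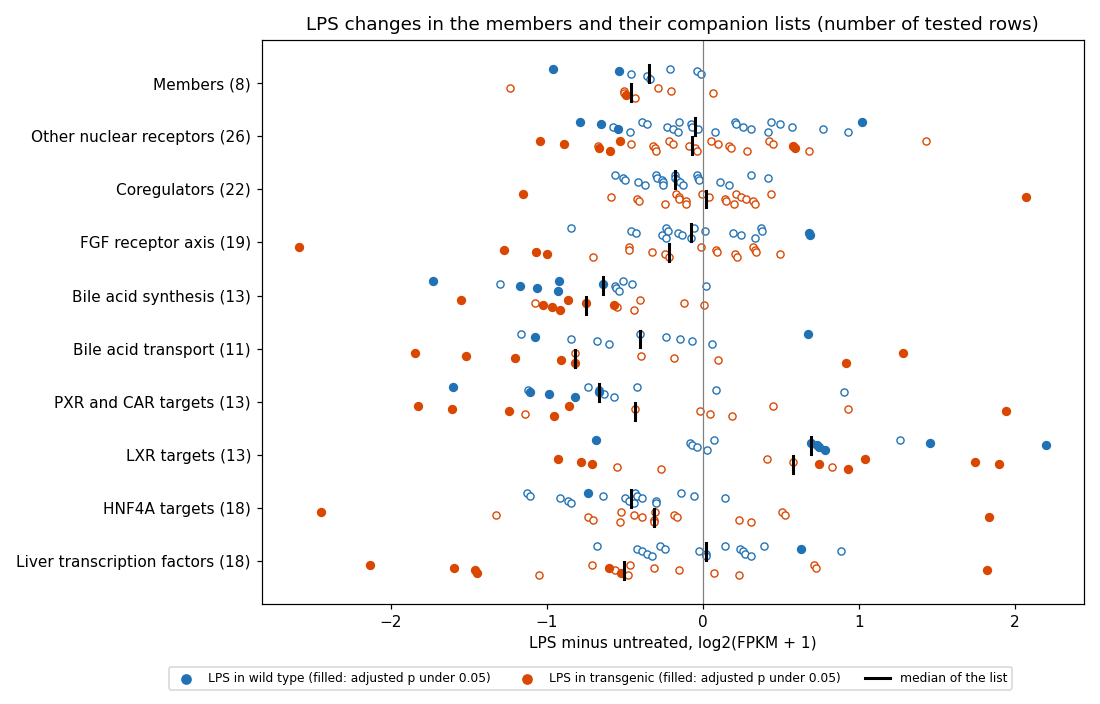
LPS minus untreated in log2(FPKM + 1) for every tested gene of the members and 9 companion lists, blue for wild type and orange for transgenic; filled points passed at an adjusted p under 0.05 and black bars are list medians. Bile acid synthesis genes lie mostly below 0 (medians -0.64 and -0.75) and LXR targets mostly above (0.69 and 0.58), with the 8 members between at -0.35 and -0.46.

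Genes whose profile over the 8 libraries was most like that of a member were listed from 6901 features with a mean of at least 5 FPKM, by Pearson r of log2(FPKM + 1). With so many candidates and 8 libraries in 4 groups, high r values are common, and they are given as a description. Nr1h4 was most like Gc, the vitamin D binding protein gene (r = 0.99), the shared row of Eif2ak2 and Gm6548 (0.987) and Mrpl22 (0.983). Gc had its lowest value, 2019 FPKM, in replicate 1 of transgenic LPS, as Nr1h4 and Nr0b2 did. Nr0b2 was most like Hao1 (0.987), Ergic1 (0.987) and Cnn3 (0.986), and Nr5a2 like Cyb5d1 (0.991), the shared row of Abcb1a, Abcb1b and Abcb4 (0.99) and Sgms2 (0.986). Hnf4a was most like Atg14 (0.984), Nr1i2 like Gnptg (0.985), Rxra like Exoc7 (0.988) and Fgfr4 like Smarcb1 (0.979). Klb had the least close match, Kat7 at 0.944.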

How the data were processed

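RNA sequencing of 8 whole-liver libraries was used as 1 deposited table of FPKM values computed by the authors. Per the submitters' processing notes the tools were TopHat2 version 2.1.0, Bowtie2 version 2.2.6, Cufflinks and Cuffdiff version 2.2.1 with build mm10. Neither the gene annotation nor a scaling between libraries is given in the sources used here. Summed FPKM differed between libraries, and depth could not be recovered from the low values. Rows with identical values were merged, and 0 columns lacked a sample. The members and lists were chosen with earlier results of these data known. Named genes were the members, Cyp7a1, in each list the up to 4 largest passing LPS changes, and the 3 closest profiles per member. Abcg5 and Abcg8 were named in addition. Values were fitted as log2(FPKM + 1) in limma 3.58.1 (R 4.3.3) with 1 mean per group over all 8 libraries, trended moderation and 4 residual degrees of freedom, tested on simulated data. Tests were 2-sided, adjusted over 11463 features. The labels do not say that each replicate is 1 mouse, so p-values measure the spread between these samples. Same-numbered replicates were not treated as pairs. Gene positions are from GENCODE vM21, upstream windows from RefSeq on GRCm38.p6 for all 10 genes. Alternatives covered the pseudocount, filter, scaling, fit, replicate block and left-out libraries.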

Additional observations from a re-analysis of the deposited data

Results flagged for a closer look

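For 3 genes of the companion lists, both LPS libraries lay outside the untreated ones in opposite directions in wild type and transgenic liver. Only the members, Cyp7a1 and the list genes already named for their LPS changes were screened. The share of all features with such opposite shifts was not computed. In wild type alone, 34% of all features had both LPS libraries below both untreated ones. The difference between the LPS changes, transgenic minus wild type, was 2.37 on the log2 scale for the coactivator gene Ppargc1a (limma adjusted p = 0.426), 3.06 for the shared row of Cyp2b10 and Cyp2b9 (limma adjusted p = 0.285) and 2.94 for Tat (limma adjusted p = 0.285). None of these interaction tests passed. In each of the 3, replicate 1 of transgenic LPS held the highest value: 22.9 FPKM for Ppargc1a, 27.6 for Cyp2b10 and Cyp2b9 and 2908 for Tat, against 4.73, 10.8 and 1388 FPKM in replicate 2.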

How the results depend on the processing

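The 8 genes with own rows and the 2 shared rows gave 1060 values under the alternatives, of which 59 changed sign and 0 of those passed the test in either fit. A further 48 no longer passed and 13 passed newly. Quantile normalization, scaling to hepatocyte genes and left-out libraries moved the calls most, and the cause was not tested. Left-out libraries and the stricter filter bring fewer samples or genes into the fit.

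Members that passed numbered 1, 0 and 1 (wild type, transgenic, averaged) after quantile normalization, 0 in wild type and 0 averaged with the hepatocyte scaling, 1 and 0 in wild type and transgenic with only the compared groups fitted (no averaged or interaction value), and 1, 0 and 1 without both untreated libraries numbered 1. Leaving out 1 library gave 0 to 3, 0 to 2 and 1 to 5, and 0 to 1 for genotype with LPS and for the interaction.

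Of all features, 2481, 3034 and 4177 passed (wild type, transgenic, averaged). A filter of 5 FPKM, which tests fewer features, gave 1379, 1835 and 2698, the hepatocyte scaling 3880 in wild type and leaving out both untreated libraries numbered 1 gave 1669 in transgenic. Left-out libraries gave 1219 to 3453, 1233 to 3641 and 2645 to 4785. In wild type 75.0% of the calls were higher, 63.4% after quantile normalization and 98.7% with the hepatocyte scaling; averaged, 56.6%, 46.6% and 85.2%. Genotype in untreated liver gave 7 features, 0 without a filter or without both untreated libraries numbered 1, 22 with only the compared groups and 2 to 44 without 1 library. Genotype with LPS gave 0, 1 without a filter, 1 after quantile normalization and 0 to 423 without 1 library. The interaction gave 1, 2 with the hepatocyte scaling and with the replicate block, 0 without a filter, after quantile normalization, median ratio scaling or robust moderation or without both untreated libraries numbered 1, and 0 to 276 without 1 library.

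Values that changed sign after quantile normalization were Nr0b2 0.0596 and Rxra 0.0422 (wild type), Hnf4a 0.10 and Madd/Nr1h3 0.17 (transgenic) and Madd/Nr1h3 0.0444 (genotype in untreated); with median ratio scaling Rxra -0.0209 (genotype in untreated). With the hepatocyte scaling they were in wild type Nr1h4 0.0260, Nr0b2 0.46, Nr1i2 0.14, Rxra 0.28, Fgfr4 0.41 and Klb 0.0890; averaged Klb 0.0742; for genotype in untreated Nr1h4 0.23, Hnf4a 0.0390, Nr1i2 0.22, Apoa2/Nr1i3 0.0487, Madd/Nr1h3 0.38, Fgfr4 0.31 and Klb 0.23; and for the interaction Nr5a2 -0.42, Nr1i2 -0.43 and Klb -0.0297. Without both untreated libraries numbered 1 they were Nr0b2 0.0414 and Fgfr4 0.26 (wild type), Madd/Nr1h3 0.0013 (transgenic), Madd/Nr1h3 0.16 and Fgfr4 0.0239 (genotype in untreated), and Nr1h4 0.0786 and Nr1i2 -0.00559 (interaction).

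Without 1 library, signs changed within these ranges: wild type, Fgfr4 -0.33 to 0.26 and Nr0b2 -0.0650 to 0.0414; transgenic, Klb -0.13 to 0.26 and Madd/Nr1h3 -0.17 to 0.0013; averaged, Madd/Nr1h3 -0.0043 to 0.25. For genotype in untreated they were Fgfr4 -0.34 to 0.25, Klb -0.31 to 0.0683, Madd/Nr1h3 -0.26 to 0.25, Nr1i2 -0.33 to 0.0011, Nr5a2 -0.0373 to 0.16 and Rxra -0.19 to 0.21. With LPS they were Nr1h4 -0.63 to 0.22 and Nr1i2 -0.39 to 0.17. For the interaction they were Apoa2/Nr1i3 -0.33 to 0.0644, Nr1h4 -0.47 to 0.37, Nr1i2 -0.22 to 0.33 and Nr5a2 -0.0532 to 0.15.

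Deviations of same-numbered libraries correlated at 0.0434 to 0.459 between groups, with the highest value between the 2 untreated groups. The labels do not state a pairing, so the main fit did not treat the numbers as pairs. With the replicate block 2769, 3314 and 4538 features passed, 6 for genotype in untreated and 0 with LPS, and the members that passed numbered 2, 1 and 2, as without it. The Apoa2/Nr1i3 fall in wild type did not pass with it (limma adjusted p = 0.0801).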
